A study of Mus musculus with 4 samples.

Results

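The transcripts described are those of 7 genes of the reprogramming network: the factors Pou5f1 (also called Oct4), Sox2, Klf4 and Myc, the Myc relative Mycn, and the RNA-binding proteins Lin28a and Trim71 (also called Lin41). They were chosen by name, and a gene counted as found when the array had a probe set (a group of short probes read together) assigned to its symbol alone. All 7 were found among 22180 genes, each with 1 probe set out of 41345, and 0 probe sets assigned to several genes held any of them. Transcripts of a transgene and of the cell's own copy are counted together wherever both carry the probes' sequence, so a value below is the sum of whichever did.

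The study screened for barriers to the reprogramming of fibroblasts and reported on Sumo2, a small ubiquitin-like protein modifier. Total RNA from 4 mouse cultures was hybridised to 1 array each, so no condition was replicated. The first culture, a bulk population of reprogrammable mouse embryonic fibroblasts 6 days into doxycycline, carried a knockdown of Firefly luciferase, an insect gene absent from mice, and was taken as the control. The second was the same with a knockdown of Sumo2. The other 2 arrays held stable lines of induced pluripotent stem cells (iPSC) derived from fibroblasts with Sumo2 knockdown and labelled 38 h and 10 day, a time whose meaning the labels do not give. All 4 carry the strain label Black6-129X1/SvJ, pooled sex, embryonic stem cell medium with serum, and the same treatment entry of doxycycline with ascorbic acid. The labels do not say which transgenes the fibroblasts carry, whether doxycycline was still present in the lines, or how separate the cultures were, so the tests below measure only the spread between these arrays.

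Pou5f1 and Sox2 are transcription factors that bind many enhancers of pluripotent cells side by side, Klf4 is a zinc finger factor shared by epithelial and pluripotent cells, and Myc and Mycn bind E-box sequences together with their partner Max and raise genes of growth and ribosome assembly. Lin28a binds the precursor of the let-7 microRNAs and keeps it from being processed. Trim71 is itself a let-7 target that represses other mRNAs and keeps pluripotent cells and early embryonic tissues proliferating.

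The sequences printed here include the stretches just before the start sites of Sox2, Klf4, Mycn and Trim71. A site before Lin28a that matches the SOX motif and microRNAs, among them those that Lin28a acts on, are given too. None of the results was tested against these sequences. All are RefSeq sequences of build GRCm38.p6, written 5′ to 3′ on the gene's strand. Promoter windows were found for 6 of the 7 genes, and the 250 bases before the start were searched on both strands for the E-box CACGTG, the octamer ATGCAAAT, the SOX core CATTGT and the KLF core CACCC, whose reverse form is GGGTG. Those letters occur in 6.02%, 1.60%, 10.7% and 52.0% of all 32851 windows of that length. Capitals mark the matches. The lines give the windows of Sox2 (chr3:34649745-34649994, plus strand), Klf4 (chr4:55532476-55532725, minus strand), Mycn (chr12:12941837-12942086, minus strand) and Trim71 (chr9:114564370-114564619, minus strand), then 30 bases before a start of Lin28a (chr4:134018895-134018924, minus strand), which lie inside the span annotated for that gene.
Sox2: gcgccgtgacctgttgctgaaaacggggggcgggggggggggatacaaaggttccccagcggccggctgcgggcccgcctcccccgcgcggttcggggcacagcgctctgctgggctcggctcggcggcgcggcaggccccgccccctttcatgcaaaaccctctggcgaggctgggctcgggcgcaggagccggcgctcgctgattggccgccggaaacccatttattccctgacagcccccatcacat
Klf4: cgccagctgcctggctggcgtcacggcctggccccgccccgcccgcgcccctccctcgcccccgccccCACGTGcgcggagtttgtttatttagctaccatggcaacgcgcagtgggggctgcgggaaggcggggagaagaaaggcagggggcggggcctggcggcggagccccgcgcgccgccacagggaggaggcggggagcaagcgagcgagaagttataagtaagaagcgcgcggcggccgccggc
Mycn: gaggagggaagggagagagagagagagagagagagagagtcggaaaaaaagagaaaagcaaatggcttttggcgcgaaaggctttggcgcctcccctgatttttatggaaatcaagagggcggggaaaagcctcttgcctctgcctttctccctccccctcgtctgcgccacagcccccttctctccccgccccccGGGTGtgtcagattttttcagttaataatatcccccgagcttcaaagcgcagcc
Trim71: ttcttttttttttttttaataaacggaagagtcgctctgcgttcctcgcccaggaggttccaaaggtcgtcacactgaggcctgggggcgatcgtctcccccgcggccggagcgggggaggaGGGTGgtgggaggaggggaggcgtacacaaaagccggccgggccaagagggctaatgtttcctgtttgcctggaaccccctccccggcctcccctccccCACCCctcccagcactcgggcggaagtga
Lin28a: ggggggttgggtCATTGTcttttagaattt

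The Klf4 window held an E-box 182 bases before the start, and the Lin28a stretch shows a SOX core 96 bases before it. Mycn held 1 KLF core, 54 bases before the start. Trim71 held 2 KLF cores, at 128 and 29 bases. The full window of Lin28a also held 2 KLF cores, at 242 and 211 bases. The Sox2 window held 0 matches to these 4 letter strings. Of the 2 Pou5f1 windows, 1 held 5 KLF cores and the other held a SOX core 158 bases before its start. A match is a description of the letters and not a binding site. GC content was 72.0% before Sox2 and 74.0% before Klf4, higher than in 93.1% and 95.1% of all windows, and 54.8% before Mycn, close to the median window at 52.4%.

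The let-7 family is defined by its seed, bases 2 to 8 of the mature strand, here in capitals. Of 12 let-7 hairpin genes listed, 11 matched a 5p strand in the RefSeq table, and all 11 had the seed GAGGUAG. The miR-290 and miR-302 clusters, microRNAs of pluripotent cells, share most of another seed; 5 of the 9 matched 3p strands had AAGUGCU, and that of miR-290a has AAGUGCC. The let-7 lines show strands of the hairpins at chr13:48538239-48538260, chr9:106178846-106178867 and chr10:122985698-122985719, and the miR-290 cluster lines those at chr7:3218674-3218697 and chr7:3220691-3220712.
let-7a-5p: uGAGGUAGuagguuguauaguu
let-7g-5p: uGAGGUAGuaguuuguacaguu
let-7i-5p: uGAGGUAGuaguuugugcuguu
miR-290a-3p: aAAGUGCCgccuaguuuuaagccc
miR-294-3p: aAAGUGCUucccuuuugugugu

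The values are log2 expression, so a difference of 1 is 2-fold. The measuring floor is the median of the single-gene probe sets of an array, 6.64 to 6.67 here, and values below it are treated as background. Genes that reached the floor on 1 or more of the arrays compared were taken as measured. All 7 genes were measured across the 4 arrays, and Sox2 passed only through the iPSC arrays. Levels of different probe sets are not comparable, so each gene is described against itself. The Sumo2 transcript read 10.65 in the Firefly culture and 10.56 in the culture labelled Sumo2 knockdown, a log2 difference of -0.09. The label is thus not borne out at this transcript, and directions drawn from that culture rest on the label. In the 38 h and 10 day lines, derived from fibroblasts with Sumo2 knockdown, the transcript read 11.40 and 11.07, above both day 6 cultures.

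**Figure D1:**
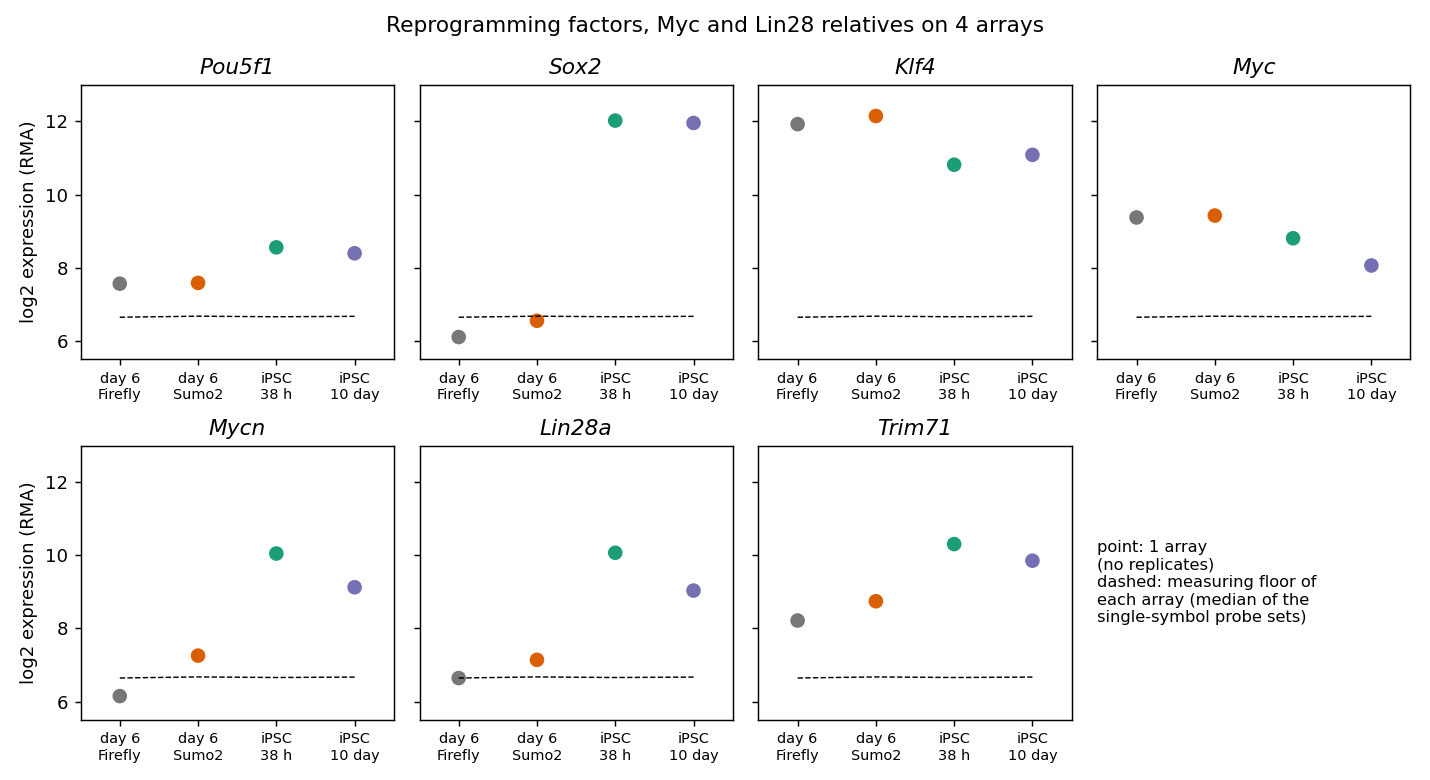
Log2 expression (y axis) of the 7 genes on the 4 arrays (x axis), 1 point per array with no replicates; the dashed line is each array's measuring floor. Sox2 lies below the floor on both day 6 arrays and at 12.03 and 11.96 on the iPSC arrays, while Klf4 and Myc are higher on the day 6 arrays.

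From the day 6 cultures to the iPSC lines, Sox2, Mycn, Lin28a, Trim71 and Pou5f1 rose, and Klf4 and Myc fell. The test was limma's moderated test of both iPSC against both day 6 arrays over 12735 measured genes, at a Benjamini-Hochberg adjusted p under 0.05. Thus 5 of the 7 rose and 2 fell, where 29.0% of all measured genes rose and 17.8% fell. Sox2 reached the floor on the iPSC arrays alone, so it could only rise. With a change of at least 2-fold required as well, 4 rose and 1 fell, where 14.3% and 9.12% of all genes did so. The 1 that fell 2-fold was Klf4. It missed 2-fold without the day 6 array labelled Sumo2 knockdown (-0.98), where 0 of the 7 fell 2-fold (Myc, at -0.94, did not pass), and without the 38 h line (-0.95), where Myc did so instead. After cyclic loess, another scaling of the arrays, Myc (-1.20) joined Klf4. The median log2 difference of the 7 was 1.60, and that of all measured genes was 0.15. The day 6 and iPSC values of each of the 7 genes did not overlap, which held for 79.5% of all measured genes. The arrays of a side are different cultures, and a smaller number of cells with a transcript cannot be told apart from less of it per cell in these bulk samples.

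Sox2 (chr3:34649995-34652461) read 6.10 in the Firefly culture, 6.55 in the culture labelled Sumo2 knockdown, 12.03 in the 38 h line and 11.96 in the 10 day line. Both day 6 values lay below the floor, so a measured Sox2 could only rise, and the lines were nearly equal to each other. Its log2 difference was 5.67 as read (SE 0.20, limma adjusted p = 0.000105), at least 40.3-fold counted from the floor. In absolute size 99.95% of measured genes had a smaller difference. The low day 6 readings were taken 6 days into doxycycline. Whether this probe set reads a Sox2 transcript made from a transgene was not tested.

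Pou5f1 (chr17:35506032-35510777) read 7.56, 7.58, 8.56 and 8.39 in the same order. Both day 6 values were almost the same and both lines stood above them, by less than 2-fold in each of the 4 pairs of an iPSC and a day 6 array. The rise was 1.87-fold (log2 difference 0.90, SE 0.16, limma adjusted p = 0.00580), and 72.2% of measured genes differed by less. How strongly this probe set responds to Pou5f1 was not tested. The related sequence Pou5f1-rs4, which has a probe set of its own, stayed below the floor on all 4 arrays, at 5.80 to 6.19.

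Klf4 (chr4:55527137-55532475) went the other way. It read 11.93 and 12.15 at day 6 and 10.82 and 11.09 in the 38 h and 10 day lines. It was above the floor on every array and highest in the culture labelled Sumo2 knockdown. Klf4 fell 2.12-fold (log2 difference -1.09, SE 0.14, limma adjusted p = 0.00181), and 3 of the 4 pairs were at least 2-fold apart.

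The 3 factors were then set beside their families. Among all measured genes 29.0% rose and 17.8% fell. Of 13 other POU genes listed, 4 were measured, 1 rose and 1 fell, and their median log2 difference was 0.49, beside 0.15 for all measured genes. Pou4f1, a factor of sensory neurons, rose by 0.96 and Pou6f1 fell by 2.32 on the log2 scale. Of 18 other SOX genes 12 were measured. Among these, 2 rose and 4 fell, with a median of -0.36. After cyclic loess Sox11 and Sox12 passed too, so that 6 fell. Sox15, a close relative of Sox2 in the way it binds DNA, rose by 2.39, from 7.12 and 7.34 to 9.37 and 9.86. Sox1 rose by 1.39 as read and 0.60 counted from the floor. It reached the floor on the iPSC arrays alone, so it could only rise. Sox4 (-1.24), Sox13 (-1.08), Sox9 (-0.68), a factor of cartilage and other progenitors, and Sox14 (-0.64) fell.

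Of 15 other KLF genes measured out of 16 listed, 5 rose, 3 fell and 7 did not pass, shares near those of all measured genes. Their median was 0.30, and 0.08 after cyclic loess. Klf2 and Klf5, which act with Klf4 in embryonic stem cells, rose by 2.62 and 2.38. Klf2 read 7.44, 6.94, 9.56 and 10.06, and Klf5 read 8.60, 9.28, 11.40 and 11.24. Klf8 rose by 2.71 as read and 2.64 from the floor. Klf7 fell by 1.80 on the log2 scale. The lines read lower in Klf4 and higher in Klf2 and Klf5 than the day 6 cultures. Whether these changes are linked was not tested.

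Genes known as direct targets of Pou5f1 and Sox2 all passed in 1 direction. Of 12 listed, 10 were measured and 10 rose, each at least 2-fold, where 14.3% of all measured genes did so. The median was 2.93 as read. Zfp42 and Dppa4 reached the floor on the iPSC arrays alone, so these could only rise. Nanog, a core pluripotency factor, read 7.54, 9.87, 12.05 and 12.50 (log2 difference 3.57). Utf1, a chromatin factor, rose by 3.76, and Tdgf1, a Nodal co-receptor, by 4.97 counted from the floor. Zfp42, known as Rex1, rose by 3.63 counted from the floor. This list overlaps the pluripotency markers below, so the lists are not separate evidence.

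**Figure D2:**
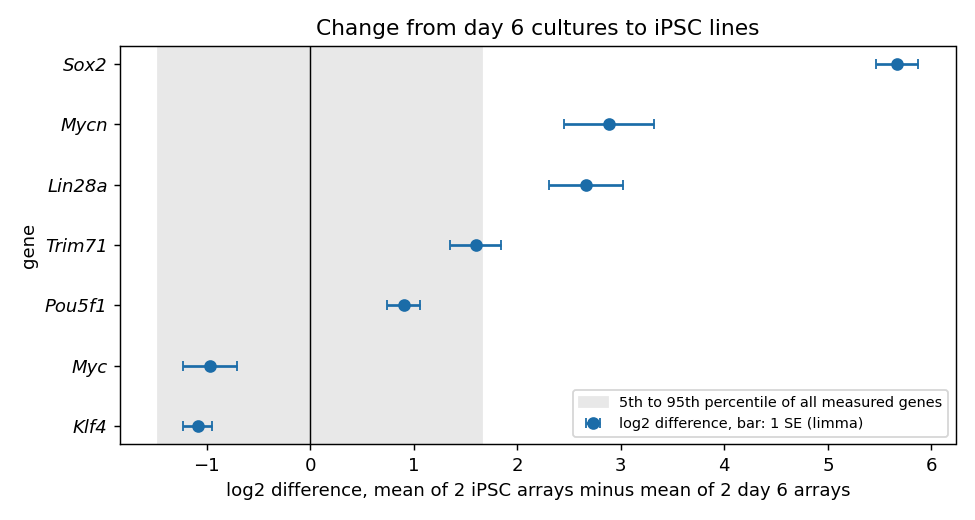
Log2 difference (x axis) between the mean of the 2 iPSC arrays and the mean of the 2 day 6 arrays for each of the 7 genes (y axis), with bars of 1 SE from limma; the grey band spans the 5th to 95th percentile of all measured genes, -1.47 to 1.66. Sox2, Mycn and Lin28a lie above the band, and Trim71 (1.60), Pou5f1, Myc and Klf4 lie inside it.

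Myc and Mycn moved in opposite directions. Myc (chr15:61985341-61990361), the most widely expressed of the family, read 9.37 in the Firefly culture, 9.43 in the culture labelled Sumo2 knockdown, 8.80 in the 38 h line and 8.06 in the 10 day line. Both day 6 values were close together and above both lines, and the 10 day line was the lowest. Myc fell 1.96-fold (log2 difference -0.97, SE 0.26, limma adjusted p = 0.0238), and 2 of the 4 pairs were at least 2-fold apart. This call depended on the arrays. The limma adjusted p was 0.113 without the Firefly array, 0.109 without the other day 6 array and 0.0668 without the 10 day line, where the difference was -0.60. Without the 38 h line it was 0.00192.

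Mycn (chr12:12936093-12941836), which is abundant in embryonic stem cells and embryonic progenitors, read 6.15, 7.26, 10.05 and 9.13. It lay below the floor in the Firefly culture alone, and both lines stood well above both day 6 cultures. Mycn rose 7.39-fold as read and 6.23-fold counted from the floor (log2 difference 2.89, SE 0.43, limma adjusted p = 0.00318). In size 98.1% of measured genes differed by less. Within an array, the log2 gap of Mycn over Myc was larger than in the Firefly culture by 1.06 in the culture labelled Sumo2 knockdown, 4.47 in the 38 h line and 4.29 in the 10 day line, all as read. Because the Firefly value of Mycn lay below the floor, these become 0.56, 3.98 and 3.80 when counted from it. The changes of Mycn and Myc differed by 3.85 on the log2 scale. The 2-sided exact permutation p was 0.333, the smallest that the 6 ways of splitting 4 arrays allow.

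Of 12 other genes of the Max network, all measured, 4 rose, 2 fell and 6 did not pass, shares near those of all measured genes. Their median was 0.05. After cyclic loess 4 rose and 4 fell, with a median of -0.06: Max (-0.49) and Mxd1 (-0.58) then passed as lower, Mlxipl (0.87) passed as higher and Mxi1 (0.36) no longer passed. Mxd4, whose protein competes with Myc for Max, read 10.19, 9.65, 6.63 and 6.97 and fell by 3.11 on the log2 scale counted from the floor. Mga, a Max partner that represses germ cell genes in embryonic stem cells, rose by 1.19, Mxd3 by 0.99, Zbtb17 (Miz1) by 0.74 and Mxi1 by 0.59, while Mlxip fell by 0.44. Max itself read 10.96, 10.86, 10.60 and 10.61 (log2 difference -0.31, limma adjusted p = 0.0814). The relative Mycl read 6.54, 7.26, 6.62 and 6.97, with a difference of -0.11 that did not pass.

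Genes known as Myc targets, for ribosome assembly, nucleotide and polyamine synthesis and growth, were then counted. Of 19 measured out of 20 listed, 6 rose, 2 fell and 11 did not pass, a share of rises near the 29.0% of all measured genes. Their median was 0.47, and 0.29 after cyclic loess, where 5 rose. Tfrc, the transferrin receptor, rose by 2.83, Ldha, a lactate dehydrogenase, by 0.99, and Ddx18, an RNA helicase, by 0.95. Ccnd2, a cyclin of the G1 phase, fell by 2.57 on the log2 scale, and the translation factor Eif4a1 fell by 0.40.

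Lin28a (chr4:134003330-134019196) read 6.64 in the Firefly culture, 7.14 in the culture labelled Sumo2 knockdown, 10.07 in the 38 h line and 9.04 in the 10 day line. Its Firefly value lay just below the floor, and the lines were above both day 6 cultures but apart from each other. Lin28a rose 6.33-fold (log2 difference 2.66, SE 0.36, limma adjusted p = 0.00218), and 97.6% of measured genes differed by less.

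Trim71 (chr9:114511268-114564369) read 8.22, 8.74, 10.31 and 9.85. It was above the floor on every array and ordered as Mycn and Lin28a were, with the Firefly culture lowest and the 38 h line highest. Trim71 rose 3.03-fold (log2 difference 1.60, SE 0.25, limma adjusted p = 0.00353), and all 4 pairs were at least 2-fold apart.

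Among the other genes of the Lin28 and let-7 pathway, 8 of 11 listed were measured. Of these, 3 rose and 5 did not pass, where 29.0% of all measured genes rose, and the median was 0.56. Tut4, the uridylase that Lin28a recruits to the let-7 precursor, rose by 1.06. Dicer1, which cuts microRNA precursors, rose by 0.86. Lin28b, the paralogue of Lin28a, rose by 1.32 as read (5.31, 5.35, 7.26 and 6.04), but only the 38 h line was above the floor and the difference counted from it was 0.30. All 12 let-7 hairpin genes had a probe set, 10 of them below the floor on all 4 arrays. The 2 measured did not pass, Mirlet7a-1 (-0.30 counted from the floor) and Mirlet7i (-0.08). Of 6 miR-290 and miR-302 genes with a probe set, 5 were below the floor throughout. Mir290a rose by 2.16 counted from the floor, reading 4.39, 5.12, 8.57 and 9.07. Reaching the floor on the iPSC arrays alone, Mir290a could only rise. Whether these probe sets read the hairpin, a longer precursor or the mature strand was not tested, so no level of mature let-7 is reported.

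Genes known as let-7 targets moved both ways. Of 8 measured out of 13 listed, 4 rose and 2 fell, where 29.0% of all measured genes rose and 17.8% fell. The median of these targets was 0.49. Cdc25a, a phosphatase that drives the cell cycle, rose by 1.65, Arid3b by 1.11, the RNA-binding protein gene Igf2bp3 by 0.85 and the nuclear receptor gene Nr6a1 by 0.80. Hmga2, a chromatin protein and the best known let-7 target, fell by 1.51 on the log2 scale, and cyclin D1, Ccnd1, fell by 1.25. Of 5 mRNAs reported as repressed by Trim71, 3 fell and 1 rose, with a median of -0.78, where 17.8% of all measured genes fell. The splicing regulator Mbnl1 fell by 1.74 on the log2 scale, the immediate early factor Egr1 by 1.09 and the cell cycle inhibitor Cdkn1a by 0.78. The pocket protein gene Rbl1 rose by 1.13, and Rbl2 (-0.46) did not pass. After cyclic loess Rbl2 passed as well (-0.69), so that 4 of 5 fell.

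**Figure D3:**
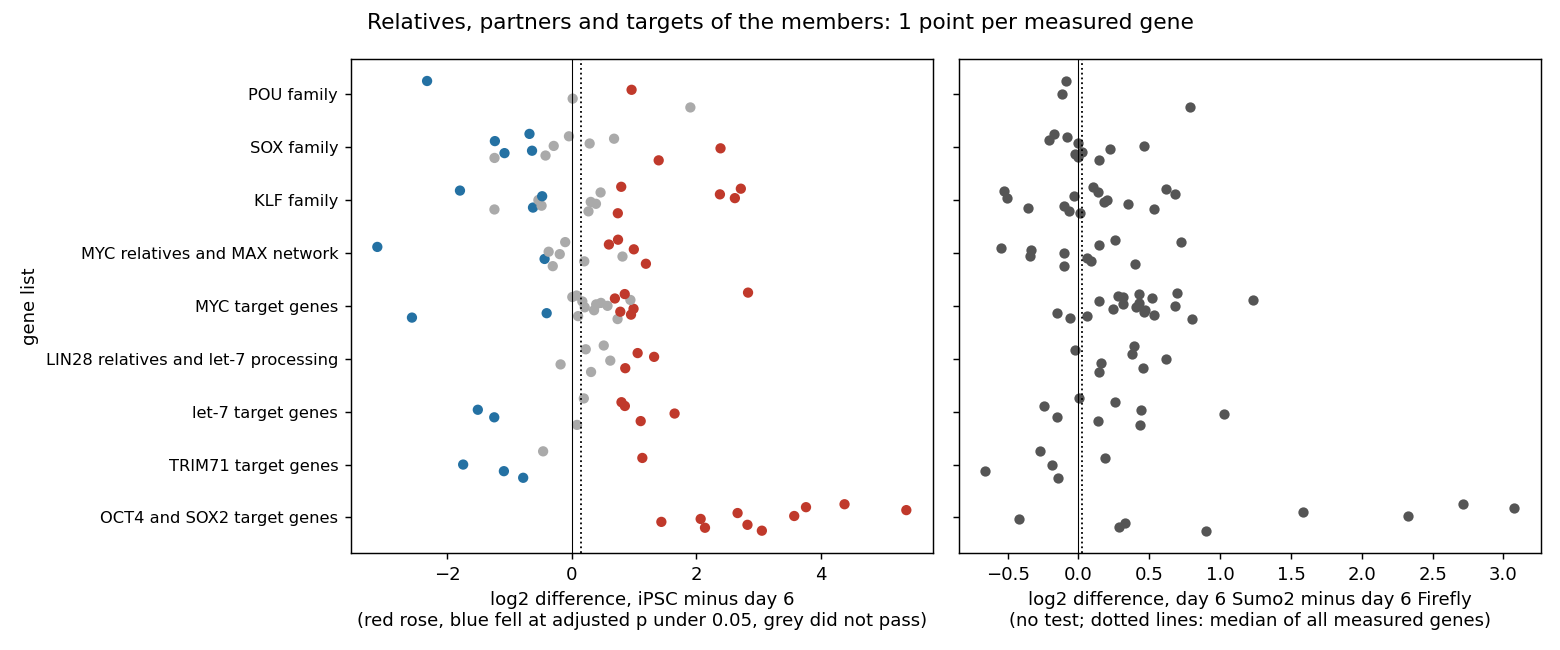
Log2 differences (x axes) of measured relatives, partners and targets by gene list (y axis), 1 point per gene: iPSC minus day 6 on the left and the day 6 culture labelled Sumo2 knockdown minus Firefly on the right, with dotted lines at the median of all measured genes (0.15 and 0.02). Targets of Oct4 and Sox2 all lie to the right of 0 in the left panel, where 58.1% of all measured genes would. In the right panel 17 of 19 Myc targets do, where 53.7% of all measured genes would.

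Between the day 6 cultures, the question was which of these genes differed with the Sumo2 label. With 1 array against 1, a size rule of 2-fold was used and no test. All 6 genes measured in that pair read higher in the culture labelled Sumo2 knockdown, as did 53.7% of all measured genes, and 4 did so after cyclic loess. Mycn and Lin28a reached the floor in this pair with the Sumo2 label alone, so these could only read higher. Of the 6, 1 was higher by at least 2-fold as read, where 0.945% of 11740 genes were 2-fold higher and 0.23% lower. Their median log2 difference was 0.36, and that of all measured genes was 0.02. That gene was Mycn, 2.15-fold higher as read (log2 difference 1.11). Counted from the floor, under which its Firefly value lay, it was 1.53-fold higher and no longer past the rule.

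Trim71 was 1.44-fold higher and Lin28a 1.41-fold. Klf4 was 1.17-fold higher. Pou5f1 (log2 difference 0.02) and Myc (0.05) were nearly equal in both cultures, and after cyclic loess these 2 differences were -0.0034 and -0.0036. Sox2 was below the floor in both, so it has no fold there. With all values counted from the floor, the differences of Mycn, Trim71 and Lin28a exceeded those of 94.9%, 92.1% and 90.5% of measured genes, that of Klf4 58.9%, that of Myc 16.4% and that of Pou5f1 6.55%.

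The 2-fold rule picked out 4 of 8 measured Oct4 and Sox2 targets, 1 of 19 Myc targets, 1 of 8 let-7 targets and 0 of the Trim71 targets and let-7 processing genes. Among all measured genes of this pair, 0.945% were at least 2-fold higher with the Sumo2 label and 53.7% read higher at all. Of 19 Myc targets 17 read higher with the Sumo2 label (16 after cyclic loess), with a median of 0.42. Odc1, the first enzyme of polyamine synthesis, was higher by 1.23 (9.67 against 10.91), and Cad, which starts pyrimidine synthesis, by 0.80. Of 8 measured Oct4 and Sox2 targets, 7 were higher and 4 of them at least 2-fold, with a median of 1.24. Esrrb and Tdgf1 reached the floor in this pair with the Sumo2 label alone, so these could only read higher. Lefty1 reached it in the Firefly culture alone and could only read lower. Utf1 was higher by 2.71 and Nanog by 2.33. Among let-7 targets 6 of 8 were higher (median 0.20), Cdc25a by 1.03. Of 7 Lin28 and let-7 processing genes 6 were higher (median 0.38), the let-7 processing nuclease gene Drosha by 0.62. Of the 5 Trim71 targets, 4 were lower (median -0.18), with Egr1 at -0.66.

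The families of the factors showed smaller steps. Among Max network genes 6 of 11 were higher (median 0.06) and after cyclic loess 5 of 11 (-0.03). Mycl was higher by 0.62 counted from the floor and Mxd4 read -0.55. Of 15 KLF genes 9 were higher (median 0.10; 7 of 15 and -0.00 after cyclic loess), with Klf5 at 0.68. Of 10 SOX genes 4 were higher (median -0.00) and of 3 POU genes 1, Pou3f1 (0.79). In none of these 4 families did a gene reach 2-fold in this pair.

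Between the iPSC lines, the question was whether they held the same levels. Here 6 of the 7 genes read higher in the 38 h line, as did 52.5% of all measured genes, 1 of them by 2-fold, where 1.03% of 11754 genes were at least 2-fold higher and 2.19% lower. Their median log2 difference was 0.46, and that of all measured genes was 0.02. Lin28a was 2.05-fold higher in the 38 h line (log2 difference 1.03), Mycn 1.90-fold (0.92) and Myc 1.68-fold (0.75). In size 97.0%, 96.1% and 93.5% of measured genes differed by less. Trim71 was 1.37-fold higher and Pou5f1 1.12-fold. Sox2 differed by 0.07, and Klf4 was 1.21-fold lower in the 38 h line. The lines were thus close in Sox2, Pou5f1 and Klf4 and further apart in Lin28a, Mycn and Myc.

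**Figure D4:**
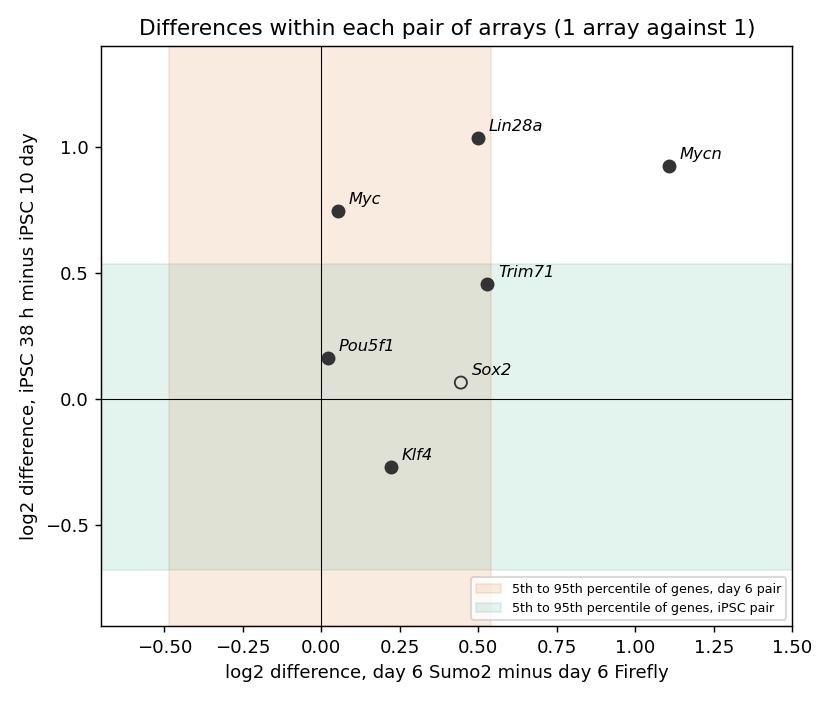
Log2 difference of each gene between the day 6 cultures (x axis, culture labelled Sumo2 knockdown minus Firefly) and between the iPSC lines (y axis, 38 h minus 10 day), 1 array against 1; shaded bands span the 5th to 95th percentile of measured genes (-0.49 to 0.54 and -0.68 to 0.54). Mycn alone lies outside both bands; Lin28a and Myc lie outside the iPSC band, and the open point marks Sox2, below the floor in both day 6 cultures.

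Targets and partners did not all follow in the lines. Of 19 Myc targets 15 were higher in the 38 h line, as were 52.5% of all measured genes. The median of these targets was 0.15 and 0 reached 2-fold, with Cad and Tert at 0.40. Of 12 Max network genes 10 were lower (median -0.15), Mlxipl the most (-0.69 counted from the floor). Of 8 let-7 targets 7 were higher (median 0.17), with Arid3b at 0.70, and of 8 Lin28 and let-7 processing genes 7 (median 0.12). For Oct4 and Sox2 targets 6 of 10 were higher (median 0.05), and for Trim71 targets 2 of 5 (median -0.15), Egr1 by 0.78. POU, SOX and KLF genes had medians of 0.15, 0.13 and 0.05.

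The genes with the most similar course over the 4 arrays were found among 11798 genes by the root mean square difference of log2 values after each gene's mean was taken off. Trim71 was matched most closely, by the ethanolamine kinase gene Etnk1 (0.0073), and next by 2 DNA repair genes, Prkdc (0.024) and Fancd2 (0.031). For Pou5f1 the nearest were Ccdc163 (0.0084), Gab1 (0.018) and Fbxo38 (0.020). Klf4 had Nat2 (0.011), Ptpn14 (0.029) and Adgrg6 (0.044), and Myc had Nxn (0.037), Cltb (0.051) and Mtmr11 (0.074). The larger changes had looser matches. Mycn was nearest to the transcription factor gene Olig2 (0.11), Aim2 (0.19) and Ppm1j (0.21), and Lin28a to Ppm1j (0.094), Car4 (0.13) and Cntfr (0.22). Mycn and Lin28a lay 0.25 apart, with 5 genes nearer to Mycn than Lin28a was. The nearest to Sox2 were Kcnma1 (0.26), Zscan4b (0.28) and Zfp640 (0.31). Some of these matches rest on values below the floor: Nat2 on 3 arrays, Kcnma1, Zscan4b, Zfp640, Mtmr11, Olig2, Ppm1j and Car4 on 2, and Aim2 and Cntfr on 1. With 4 arrays many genes share a course.

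Markers of cell types moved along with these results. The epithelial markers averaged 7.67, 9.06, 9.96 and 10.14 (log2) over the Firefly, Sumo2-labelled, 38 h and 10 day arrays. Of 6, 5 were above Firefly in the culture labelled Sumo2 knockdown and 4 rose in the lines (3 after cyclic loess, where Epcam did not pass). Among all measured genes 53.7% were higher in that culture and 29.0% rose in the lines. The pluripotency markers averaged 6.81, 7.95, 10.00 and 10.28. All 6 measured at day 6 were higher in that culture, though Esrrb and Tdgf1 reached the floor at day 6 there alone. Of 10 listed, 9 were measured and 9 rose (8 after cyclic loess, all but Nr5a2), where 29.0% of all measured genes rose. Zfp42, Tcl1 and Dppa3 reached the floor on the iPSC arrays alone, so these could only rise, and Dppa3 differed by 0.44 counted from the floor. Dppa5a was below the floor on every array. The fibroblast markers averaged 9.68, 9.19, 8.97 and 8.55. Of these, 0 of 9 were above Firefly in the culture labelled Sumo2 knockdown. Twist2 reached the floor at day 6 in the Firefly culture alone, so it could only read lower. In the lines 4 of 10 fell (5 after cyclic loess), where 17.8% of all measured genes fell, and Postn rose. Postn reached the floor on the iPSC arrays alone, so it could only rise. Thy1, a fibroblast surface protein, read 11.71, 11.23, 8.85 and 8.69. The part of such shifts in the values of the 7 genes was not tested.

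Other cell types were represented by few measured markers. Of the macrophage markers Ptprc, Adgre1 and Csf1r were below the floor on all 4 arrays, while Cd68 and Lyz2 rose. The list averaged between 6.31 and 6.37 at day 6 and between 6.76 and 6.82 in the lines. Of the endothelial markers Pecam1, which embryonic stem cells also express, rose and Tek fell, and the list averages lay between 7.12 and 7.44. Of the neural markers Tubb3 and Olig2 rose and Nes fell, with averages of 6.81 and 7.25 at day 6 and 7.93 and 7.88 in the lines. Of the endoderm markers Gata6 rose, Foxa2 fell and Sox17 was below the floor on all arrays, with averages of 6.70 to 7.28. Of 5 keratinocyte markers with a probe set, Sprr1a alone was measured, and it did not pass (0.55). Pecam1, Tubb3, Olig2 and Gata6 reached the floor on the iPSC arrays alone, so these could only rise.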

How the data were processed

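Total RNA was labelled with biotin and measured on 1 array per culture. The deposited values are log2 expression per probe set, made by the authors with RMA (Affymetrix Expression Console); this comes from the submitters' processing notes. Versions and settings are not given in the sources used here, and the table does not name the log base. RMA's quantile step equalises the arrays, which hides any shift in the total RNA of a cell, and folds of dim probe sets are compressed. Arrays have no counting depth; the precision is limited by their number.

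The platform annotation gave a single symbol for 23521 of the 41345 probe sets, several for 1814 and none for 16010. Where a gene had several, the one with the highest mean was used. Positions are those of GRCm38.p6. Differences between both iPSC and both day 6 arrays were tested with limma 3.58.1 in R 4.3.3 (lmFit, eBayes with trend, 2 residual degrees of freedom), with adjustment over all 12735 measured genes. The script was tested on simulated data. The comparisons share arrays, so their values are given side by side. Up to 4 genes with the largest differences counted from the floor are named per list, along with the members of small counts and genes chosen after their values were seen, and 3 nearest genes per gene. The 7 genes and all lists were chosen with earlier results of these data known. Alternatives were cyclic loess, a 1.5-fold rule, adjusted p alone, no intensity trend, another floor or none, values counted from the floor, the median over a gene's probe sets, and leaving out each array.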

Additional observations from a re-analysis of the deposited data

How the results depend on the processing

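Of 102 values recomputed for the 7 genes, 96 kept their direction and their side of the threshold. Between iPSC and day 6 arrays that threshold was the adjusted p alone, and within a pair of arrays it was 2-fold. The moves of Klf4 and Myc across 2-fold between iPSC and day 6 arrays, given above, therefore count as kept. Part of these values could not move. Each of the 7 genes has 1 probe set, so the median over probe sets left its log2 differences as they were. Counting from the floor changes a log2 difference only where a value lies below the floor. The number kept is thus no measure of robustness by itself. With counts of genes past a threshold included, 147 of 165 were kept. Such a count was taken as kept when it and the main count were within 1.5-fold of each other. The exceptions among the 7 genes concern Pou5f1, Myc and Mycn. After cyclic loess the day 6 differences of Pou5f1 and Myc became -0.0034 and -0.0036, which is to say that neither has a direction. Mycn differed by 0.61 at day 6 when counted from the floor. Leaving out 1 array at a time, the Myc difference between iPSC and day 6 arrays ranged from -1.34 to -0.60 on the log2 scale and its limma adjusted p from 0.00192 to 0.113, with 3 of the 4 omissions not passing. For the other 6 genes every such omission passed, at a limma adjusted p of at most 0.0460 (Pou5f1).

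A 1.5-fold rule gave 5328 genes between iPSC and day 6 arrays (3294 up and 2034 down), 810 between the day 6 cultures (480 and 330) and 1240 between the lines (483 and 757). The 2-fold rule gave 2981, 138 and 379. Adjusted p alone gave 5958 (3694 and 2264). Leaving out 1 array gave 2251 to 3176 (1336 to 1951 up and 915 to 1240 down). No paired analysis was possible because the labels carry no replicate numbers. With 1 array per condition, the day 6 and iPSC line differences have no error of their own, and signal near the floor limits what can be said of Sox2, Mycn, Lin28a and the hairpin genes.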

Other observations

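Some other genes of the lists differed between the iPSC lines, as read, by more than any of the 7 did. Pou2f3, a POU factor of tuft cells and skin, was above the floor in the 38 h line alone, at 9.29 against 5.48, 5.56 and 5.55 in the Firefly, Sumo2-labelled and 10 day cultures. Counted from the floor it was 6.15-fold higher than in the 10 day line. Klf12 read 7.90 in the 38 h line and 6.34 in the 10 day line, 1.23 apart on the log2 scale counted from the floor. Sox11, a factor of neural progenitors, read 7.61 and 6.19. Counted from the floor it was 0.94 apart on the log2 scale, less than Lin28a (1.03). The endoderm factor Gata6 stood at 8.42 and 7.12. Each of these rests on 1 array per line and was chosen after its values were seen.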
